A study of Mus musculus with 17 samples.

Results

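The interferon gamma and CXCR3 chemokine axis was followed here through 5 genes of the 55450 in the count table: Ifng, which encodes the cytokine interferon (IFN) gamma, Cxcl9, Cxcl10 and Cxcl11, which encode 3 chemokines that bind CXCR3, and Cxcr3, which encodes their receptor. They were taken as the rows whose Ensembl identifiers carry these symbols in Gencode vM21, 1 row per gene, and all 5 had counts in every library. The tumors were grown from AB12, a mouse mesothelioma cell line, of which 100000 cells were placed in the peritoneum of 8-week-old female BALB/c mice. There were 3 untreated tumors collected on d6, 5 on d10 and 3 on d14. Tumors of mice given the anti CTLA-4 antibody clone 9D9, 200 µg per injection into the peritoneum, were collected on d10 (n = 3) and d14 (n = 3). The mice of the treated d14 tumors had received the antibody on d6 and d10, while the injection days of the treated d10 tumors are not given in the sources used here. Each tumor came from its own mouse, all tumors derive from 1 cell line, and the labels name no control antibody for the untreated mice. The comparisons ask how the axis changes as the tumor grows and whether it differs under CTLA-4 blockade.

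IFN gamma is secreted mainly by activated T cells and natural killer (NK) cells and signals through the receptor chains IFNGR1 and IFNGR2, which start a kinase cascade that switches on target genes. Among the genes it induces in macrophages, dendritic cells, stroma and tumor cells are Cxcl9, Cxcl10 and Cxcl11, and the secreted chemokines attract CXCR3-bearing effector T cells and NK cells. Cxcl9 is known to depend largely on IFN gamma, whereas Cxcl10 and Cxcl11 are also induced by type I IFN, through the IFN-stimulated response element (ISRE), and Cxcl9 and Cxcl10 respond to NF-kappaB as well.

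The 3 chemokine genes lie side by side on chromosome 5 of GRCm38, all on the minus strand. Cxcl9 (ENSMUSG00000029417.9) spans chr5:92321347-92328079, Cxcl10 (ENSMUSG00000034855.13) chr5:92346638-92348889 and Cxcl11 (ENSMUSG00000060183.6) chr5:92359544-92365485. Ifng (ENSMUSG00000055170.4) spans chr10:118441046-118445892 on the plus strand and Cxcr3 (ENSMUSG00000050232.6) chrX:101731535-101734269 on the minus strand. Gencode vM21 classes Cxcl11 as a polymorphic pseudogene, that is, a gene that is broken in the reference strain C57BL/6J but can be intact in others. Its transcript was abundant in these BALB/c tumors, and its protein was not measured here. Ifng shares 336 exon bases with Gm49751, which had 2 to 46 counts per library, Cxcl10 shares 133 with Art3 on the other strand, and Cxcl11 shares 1582 with the pseudogene Gm2673, which had at most 1 count. Whether counting used strand is not given in the sources used here, so reads from such stretches may be assigned to either gene or to none.

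The promoters of Cxcl9 and Cxcl10 are shown because Cxcl10 fell from d6 to d10 while the difference in Cxcl9 was not called. Each is the 250 bases before the gene's start, from RefSeq on GRCm38.p6, read 5′ to 3′ on the minus strand, with motif matches in capitals. The Cxcl9 window is chr5:92328080-92328329 and the Cxcl10 window chr5:92348890-92349139.
Cxcl9: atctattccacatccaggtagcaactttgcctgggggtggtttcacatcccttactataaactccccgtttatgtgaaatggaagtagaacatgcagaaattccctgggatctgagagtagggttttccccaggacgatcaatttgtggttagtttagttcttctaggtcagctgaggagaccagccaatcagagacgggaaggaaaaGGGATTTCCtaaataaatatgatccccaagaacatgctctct
Cxcl10: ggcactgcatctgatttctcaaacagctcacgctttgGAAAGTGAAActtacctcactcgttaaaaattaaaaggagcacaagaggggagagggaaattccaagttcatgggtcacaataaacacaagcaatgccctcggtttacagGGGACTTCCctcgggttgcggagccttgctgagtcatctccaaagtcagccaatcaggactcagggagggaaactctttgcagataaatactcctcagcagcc
The Cxcl10 window holds 1 ISRE match (GAAAGTGAAA, 213 to 204 bases before the start) and 1 NF-kappaB match (GGGACTTCC, 103 to 95 bases before it). The Cxcl9 window holds an NF-kappaB match (GGGATTTCC, 42 to 34 bases before the start) and no match to the ISRE letters. Both strands were searched for GAAANNGAAA (ISRE), TTCNNNGAA (the gamma-activated site, GAS) and GGGANTTCC (NF-kappaB), and these letters occur in 2.98%, 7.02% and 1.43% of 32851 promoters of that length. The GAS letters were found in neither chemokine window, whereas the Ifng window holds 1 such match, 249 to 241 bases before its start. A match describes the sequence only, and binding was not measured.

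Total counts per library ranged from 46371577 to 96759833, and those of the untreated d6 tumors from 46371577 to 52814004. Mesothelial markers were present in every library, with Msln, which encodes mesothelin, between 175 and 636 CPM, the count per 1000000 counts of the library after TMM scaling. Pancreas acinar transcripts (Cpa1, Cela2a, Pnlip, Prss2 and Ctrb1) summed to 2786 and 952 CPM in the anti CTLA-4 treated d14 replicates 1 and 3, to 1.26 CPM in replicate 2 and to at most 0.319 CPM in the other 14 libraries. Calls among the 5 genes that rest on the treated d14 tumors are therefore also given with replicate 2 alone, a choice made after seeing the data. Such a fit has 1 treated d14 tumor and assumes that it varies as the tumors of the other groups do. Among the untreated d10 tumors, replicates 4 and 5 stand apart from replicates 1 to 3. Fold changes and counts of calls that use d10 were also computed with either set, but the ratios to T cell markers were not. RNA was taken from whole tumor pieces, so for each of the 5 genes fewer cells of a type and less RNA per cell cannot be told apart.

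Levels of the different genes were compared per kilobase of exon (FPKM, from the normalized counts). At d6 Cxcl10 stood at 382 ± 184 FPKM (SD, n = 3), Cxcl9 at 278 ± 23.1, Cxcl11 at 105 ± 27.8, Ifng at 22.1 ± 4.28 and Cxcr3 at 1.27 ± 0.181. At d10 the untreated tumors (n = 5) had 204 ± 36.6 FPKM of Cxcl9, 91.9 ± 8.35 of Cxcl10, 29.9 ± 6.97 of Cxcl11, 12.9 ± 5.11 of Ifng and 3.40 ± 1.46 of Cxcr3. Cxcl9 was the highest of the 5 in every library from d10 on, treated or untreated, and Cxcr3 was the lowest of the 5 in every library of the series. At d6 Cxcl9 and Cxcl10 could not be ordered, since the Cxcl10 values, 214 to 578 FPKM, enclosed the Cxcl9 values, 252 to 293 FPKM.

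**Figure D1:**
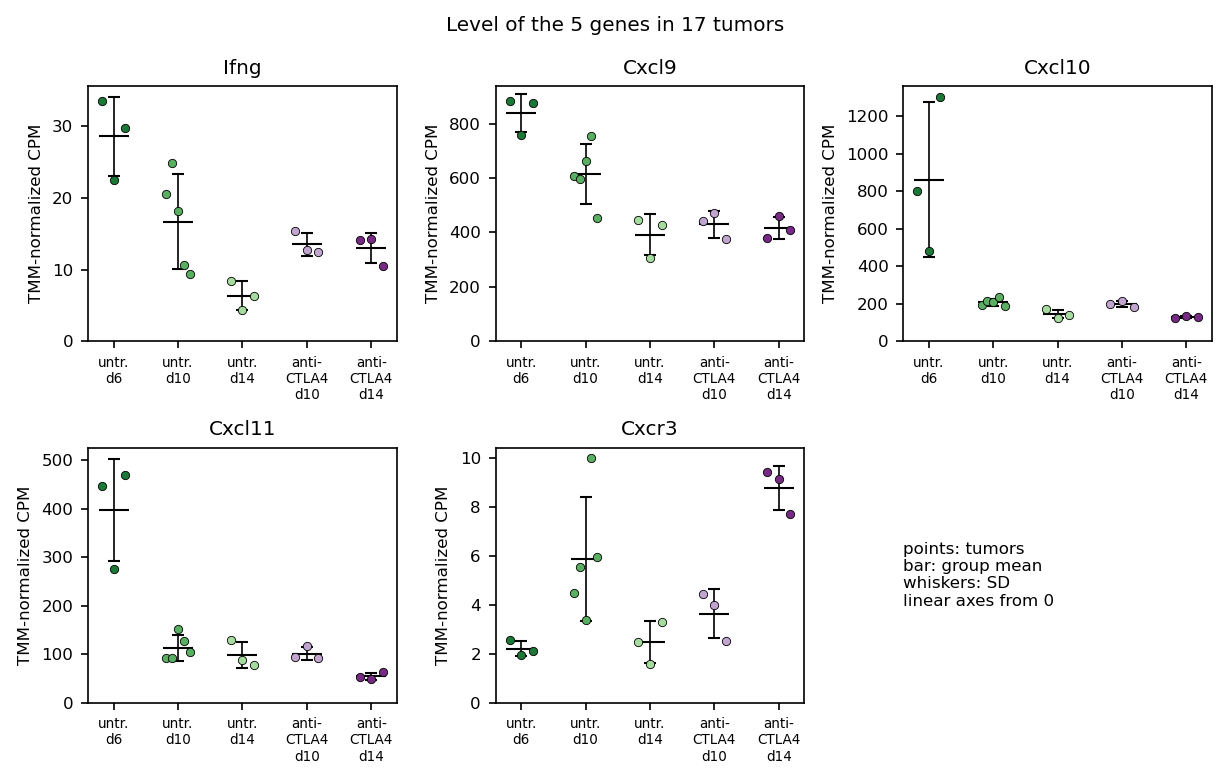
Normalized CPM (linear axes from 0) of the 5 genes in 17 tumors by group; points are tumors, the bar is the group mean and the whiskers the SD. Cxcl10 and Cxcl11 drop between d6 and d10, Ifng is lowest in the untreated d14 tumors, and the group mean of Cxcr3 is highest in the treated d14 tumors (7.73 to 9.43 CPM), though untreated d10 replicate 4 reached 10.0 CPM.

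From d6 to d10 the untreated tumors lost most of their Cxcl10 and Cxcl11 transcript and gained Cxcr3. Of the 5 genes 3 were called, Cxcl10 and Cxcl11 lower and Cxcr3 higher, where called means past both thresholds of edgeR's quasi-likelihood test, more than a 2-fold change and an adjusted p under 0.05. Among all 16866 genes tested 7.45% were called, 4.79% higher and 2.66% lower.

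Cxcl10 was at 799, 481 and 1302 CPM in the d6 tumors. At d10 it was at 192, 212, 209, 235 and 187 CPM, so the lowest d6 tumor was above every d10 tumor. The fall was by 2.04 on the log2 scale (SE 0.25, adjusted p = 0.00094), or 4.10-fold. Cxcl11 was at 448, 277 and 470 CPM at d6 and at 91.8, 91.3, 153, 127 and 104 CPM at d10, again without overlap. It fell by 1.79 on the log2 scale (SE 0.22, adjusted p = 0.00087). Both chemokines had their lowest d6 value in replicate 2, and both remained called when that tumor or any other was left out.

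The difference in Cxcl9 between these days was not called. It was at 883, 759 and 876 CPM at d6 and at 607, 596, 661, 755 and 452 CPM at d10, where the highest d10 tumor lay just below the lowest d6 tumor. Its log2 fold change of -0.43 (SE 0.15) did not pass (adjusted p = 0.077). Ifng was at 33.5, 22.6 and 29.8 CPM at d6 and at 20.5, 24.9, 18.2, 10.6 and 9.33 CPM at d10, with overlapping groups and a log2 fold change of -0.76 (SE 0.30, adjusted p = 0.11). The lowest 2 of the d10 values are those of replicates 4 and 5, and against d6 these tumors alone gave -1.51 (adjusted p = 0.00064), which is past the threshold. Cxcr3 was at 2.56, 1.96 and 2.11 CPM at d6 and at 4.49, 5.54, 3.37, 10.0 and 5.98 CPM at d10, without overlap. Its rise of 1.44 on the log2 scale (SE 0.33, adjusted p = 0.016) lost the call when d6 replicate 1, 2 or 3 was left out, at log2 values of 1.56, 1.35 and 1.41 and adjusted p = 0.054, 0.072 and 0.072.

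The level of the ligands relative to each other changed with that fall. Per length, Cxcl9 made up 38.1% ± 8.74 (SD, n = 3) of the summed level of the 3 chemokines at d6 and 62.3% ± 2.86 (n = 5) at d10, while Cxcl10 made up 48.1% ± 9.41 and 28.5% ± 2.32. The log2 ratio of Cxcl9 to Cxcl10 CPM lay between -0.57 and 0.66 at d6 and between 1.28 and 1.69 at d10, and in no library of any later group was it below 1.03. The log2 ratio of Cxcl11 to Cxcl10 stayed in overlapping ranges, -1.47 to -0.80 at d6 and -1.22 to -0.45 at d10. These ratios were given no test.

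**Figure D2:**
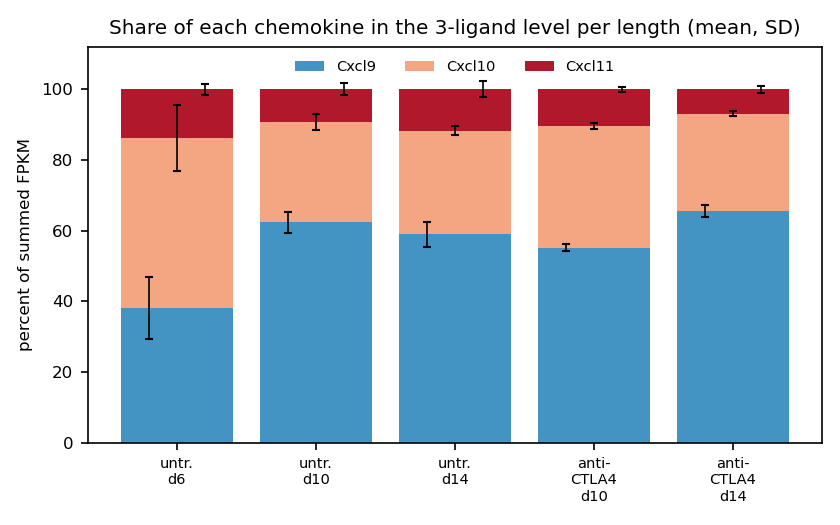
Mean share of each chemokine in the summed FPKM of Cxcl9, Cxcl10 and Cxcl11 (percent, stacked bars from 0; whiskers are the SD over tumors). Cxcl9 takes 38.1% at d6 and between 55.2% and 65.6% in the other 4 groups.

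Genes of the type I IFN response were also lower at d10. Of 28 type I IFN targets, all tested, 25 were called lower at d10 and none higher, with a median log2 fold change of -1.80 beside 0.03 over all genes. The largest falls were in the antiviral genes Mx2 (log2 fold change -4.09, SE 0.47, adjusted p = 0.00064) and Ifit3b (-4.02, SE 0.39, adjusted p = 0.00034) and in Rsad2, which encodes viperin (-3.68, SE 0.37, adjusted p = 0.00037). Ifnb1, which encodes IFN beta, was the only 1 of 10 type I and III IFN ligand genes with enough counts to be tested. Its level was between 0.242 and 1.34 CPM at d6 and between 0.0155 and 0.0571 CPM at d10, a log2 fold change of -4.42 (SE 0.60, adjusted p = 0.0014) that rests on at most 66 counts in any library.

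The IFN gamma targets were counted without the chemokines. Of 29, 1 was called higher (Nos2, inducible nitric oxide synthase, log2 fold change 1.12, SE 0.15, adjusted p = 0.0011) and none lower, and their median was -0.45, with 23 of 29 below 0. At any fold 12 were past the p-value threshold, against 17.5% of all genes. With only replicates 4 and 5 as d10 tumors, 5 were called. The 8 genes of the receptor and its signaling included none that was called, and Irf1, a transcription factor gene, was at a median of 785 CPM at d6 and of 681 CPM at d10. Of 6 MHC class II genes, also induced by IFN gamma but made constitutively by antigen-presenting cells, 3 were called higher: H2-Eb1 (log2 fold change 1.55), H2-Aa (1.23) and H2-Ab1 (1.19), with adjusted p between 0.0028 and 0.0041.

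Among 15 genes that induce Ifng or mark cells able to make it, 14 were tested, 2 rose and 4 fell. Il18r1, a chain of the IL-18 receptor, and Tbx21, which encodes T-bet, rose by 1.89 (SE 0.22, adjusted p = 0.00065) and 1.61 (SE 0.17, adjusted p = 0.00047) on the log2 scale. Il21 and Il15, cytokines that act on T and NK cells, fell by 2.02 (SE 0.46, adjusted p = 0.015) and 1.27 (SE 0.20, adjusted p = 0.0027). Il21 had only 14 to 25 counts per library at d6 and 3 to 13 at d10. Il12rb1, a chain of the IL-12 receptor, had at most 1 count in any library and was not tested, and why its row is nearly empty was not looked into, so it is not read as absent expression. Without d6 replicate 3 the 6 calls of this list became 2. Of 7 other chemokine and receptor genes of effector T cells 4 rose, led by Cxcr6 at a log2 fold change of 3.43 (SE 0.19, adjusted p = 1.8e-05) and Ccl5 at 3.07 (SE 0.31, adjusted p = 0.00038). Of 4 genes whose products bind or process CXCR3 ligands or that encode another one, 1 was called: Pf4, which encodes CXCL4, fell by 1.43 (SE 0.31, adjusted p = 0.012). The 6 genes that flank the chemokine cluster or lie within it, Ppef2, Naaa, Sdad1, Art3, Nup54 and Scarb2, included none that was called, with a median of -0.24.

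**Figure D3:**
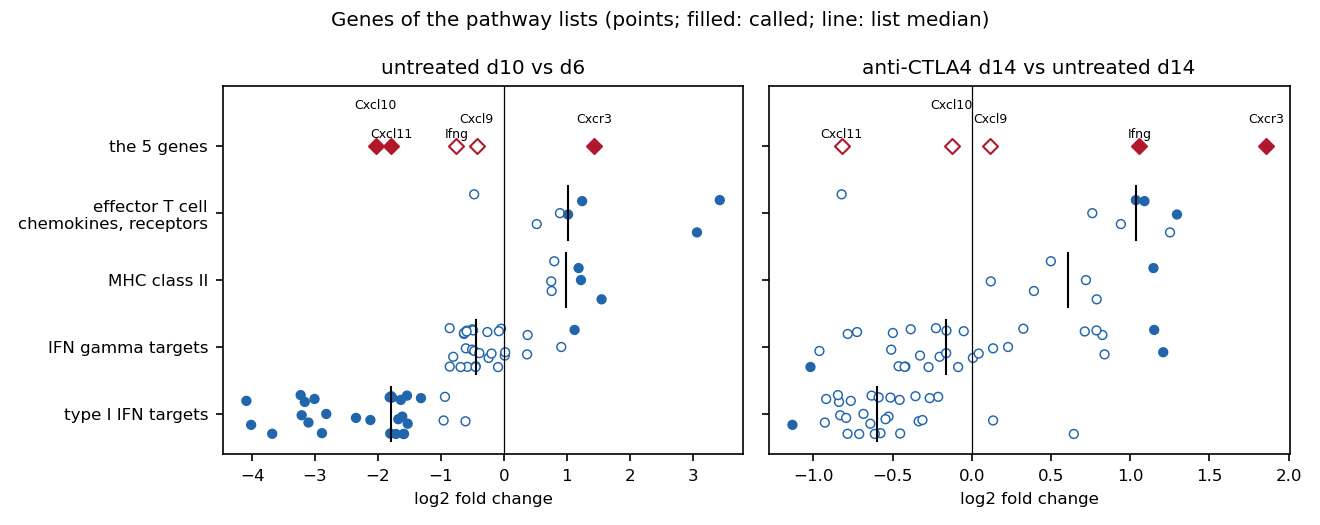
Log2 fold changes of 4 gene lists (circles) and the 5 genes (diamonds) for untreated d10 against d6 (left) and anti CTLA-4 treated against untreated d14 (right, another scale); filled symbols were called and the black line is the list median. At left the list medians are -1.80 for the type I IFN targets and -0.45 for the IFN gamma targets. Cxcl10 lies at -2.04, Cxcl11 at -1.79 and Cxcl9 at -0.43, and the part of either IFN in these differences was not tested.

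T cell transcripts stood higher at d10 than at d6, unlike Ifng. The summed level of Cd3d, Cd3e, Cd3g, Cd2, Cd5 and Cd6 was between 50.7 and 52.8 CPM in the d6 tumors and between 146 and 195 CPM in the untreated d10 tumors. Relative to that sum, the log2 level of Ifng was -0.87 ± 0.26 (SD, n = 3) at d6 and -3.43 ± 0.69 (n = 5) at d10, without overlap. The difference of -2.55 had p = 0.018 in an exact two-sided permutation test, the smallest that 3 against 5 tumors can give. Its adjusted p was 0.20 over 14 such tests, a correction that a lone test at this smallest p cannot pass. The test therefore does not decide on this difference. Cxcr3 relative to the same sum was at -4.50 ± 0.17 at d6 and -4.91 ± 0.42 at d10, a difference of -0.41 (exact permutation p = 0.18, adjusted p = 0.31), with overlap. Markers of NK cells, which also make IFN gamma, summed to between 7.92 and 9.25 CPM at d6 and between 5.92 and 10.4 CPM at d10. The CD8 T cell genes Cd8a and Cd8b1 summed to between 12.1 and 12.4 CPM at d6 and between 96.6 and 135 CPM at d10, while Cd4 was between 9.11 and 10.8 CPM and between 5.68 and 10.1 CPM.

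Markers of cells that can make the chemokines also differed between these days. Those of type 1 conventional dendritic cells summed to between 222 and 300 CPM at d6 and between 137 and 168 CPM at d10, but only 1 of these 6 genes was called, Tlr3, at a mean of 179 CPM at d6 and 51.7 CPM at d10, while Clec9a was at 11.4 and 11.3 CPM. Resident peritoneal macrophage markers summed to between 410 and 573 CPM and between 69.4 and 163 CPM, with 5 of 6 called lower. General macrophage markers lay between 1055 and 1161 CPM at d6 and between 1150 and 1909 CPM at d10. Their part in the fall of Cxcl10 and Cxcl11 was not tested.

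**Figure D4:**
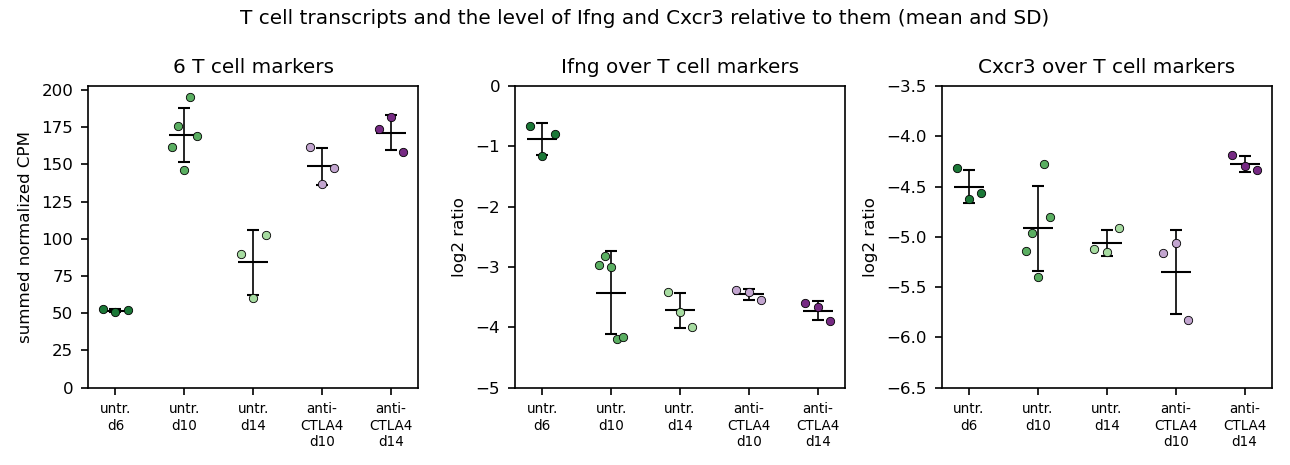
Summed normalized CPM of 6 T cell markers (left, axis from 0) and the log2 ratio of Ifng (middle) and Cxcr3 (right) to that sum, in 17 tumors by group with mean and SD; the log2 axes do not start at 0. Ifng per T cell marker is highest in the 3 d6 tumors, while Cxcr3 per T cell marker is higher in the treated d14 tumors than in the untreated d14 and treated d10 tumors.

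From d10 to d14 the untreated tumors lost Ifng and Cxcr3. Both were called lower, 2 of the 5 genes, against 7.23% of 17659 genes tested, 3.78% higher and 3.45% lower. This comparison uses the same untreated d10 tumors as the one before.

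Ifng was at 8.37, 4.39 and 6.35 CPM at d14, below every d10 tumor. It fell by 1.39 on the log2 scale (SE 0.35, adjusted p = 0.024), or 2.62-fold. Cxcr3 was at 2.49, 1.60 and 3.31 CPM at d14, also below every d10 tumor, though only just below the lowest of 3.37 CPM. It fell by 1.26 (SE 0.37, adjusted p = 0.040). Neither call was firm. With d10 replicates 4 and 5 alone the Ifng difference was -0.66 (adjusted p = 0.10), and leaving out 1 tumor gave adjusted p = 0.053 without d10 replicate 1, 0.052 without d10 replicate 2, 0.11 without d14 replicate 2 and 0.069 without d14 replicate 3. The Cxcr3 difference was -0.85 (adjusted p = 0.051) with d10 replicates 1 to 3 alone and -0.98 (adjusted p = 0.044) without d10 replicate 4. Its adjusted p was 0.055 without d10 replicate 1, 0.073 without d10 replicate 2 and 0.056 without d10 replicate 5, and 0.11, 0.16 and 0.053 without d14 replicate 1, 2 or 3.

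The chemokines changed by less than the fold threshold. Cxcl9 was at 445, 304 and 427 CPM at d14, without overlap with d10, at a log2 fold change of -0.65 (SE 0.18, adjusted p = 0.032). Cxcl10 was at 169, 123 and 142 CPM, without overlap, at -0.52 (SE 0.13, adjusted p = 0.022). Cxcl11 was at 128, 87.8 and 77.8 CPM and overlapped with d10, at -0.21 (SE 0.22, adjusted p = 0.51).

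Taken over all 5 d10 tumors, Ifng per T cell marker did not separate these days. The T cell sum was between 60.2 and 103 CPM at d14, below every d10 tumor. The log2 ratio of Ifng to it was -3.72 ± 0.29 (n = 3), a difference of -0.29 from d10 (exact permutation p = 0.55, adjusted p = 0.70). That d10 mean averages replicates 1 to 3, at -3.00 to -2.82, and replicates 4 and 5, at -4.19 and -4.17. The d14 tumors, at -4.00 to -3.41, fell between these sets. For Cxcr3 the ratio was -5.06 ± 0.13, a difference of -0.15 (exact permutation p = 0.66, adjusted p = 0.77). Its d14 values, -5.15 to -4.91, overlapped with d10 replicates 1 to 3, at -5.40 to -4.96. They lay below d10 replicates 4 and 5, at -4.27 and -4.80. Macrophage markers, between 432 and 784 CPM at d14, NK cell markers, between 2.81 and 4.38 CPM, and Cd4, between 2.08 and 4.57 CPM, were also below every d10 tumor. The same held for CD8 T cell markers (38.3 to 73.4 CPM at d14, 96.6 to 135 CPM at d10), resident peritoneal macrophage markers (39.9 to 61.9 and 69.4 to 163), adipocyte markers (1.10 to 3.75 and 9.70 to 21.0) and the trace of skeletal muscle markers (at most 0.188 CPM at d14), and the part of these cells in the levels of the 5 genes was not tested.

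Of the tested genes that induce Ifng 2 fell, Tbx21 by 1.31 (SE 0.27, adjusted p = 0.012) and Ebi3, a subunit of IL-27 and IL-35, by 1.19 (SE 0.31, adjusted p = 0.027), and none rose. Socs1, an inhibitor of IFN gamma signaling, was the 1 gene called of 8 for the receptor and its signaling, with a fall of 1.16 (SE 0.24, adjusted p = 0.014). Of the 29 IFN gamma targets 2 rose, the GTPase genes Tgtp1 by 1.20 (SE 0.23, adjusted p = 0.011) and Tgtp2 by 1.04 (SE 0.16, adjusted p = 0.0066), and 1 fell, the serine protease inhibitor gene Serpina3g, by 1.19 (SE 0.32, adjusted p = 0.030). Tgtp1 and Tgtp2 are near-identical neighbours, so reads counted for one may belong to the other. H2-Ab1 was called lower among the MHC class II genes, at a log2 fold change of -1.52 (SE 0.28, adjusted p = 0.0093). Of the type I IFN targets 1 of 28 was called, Ifi27l2a, which fell by 1.27 (SE 0.27, adjusted p = 0.015), and the list's median was 0.20. Xcl1 and Cxcl16, which encode ligands for XCR1 and CXCR6, fell by 1.52 (SE 0.27, adjusted p = 0.0087) and 1.27 (SE 0.27, adjusted p = 0.014). With 1 tumor left out the calls ranged from 1 to 5 among the inducing genes and from 1 to 5 among the IFN gamma targets, with 5 in each list without d14 replicate 3 and 1 in each without d14 replicate 2.

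Set directly against each other, d14 and d6 differed in Ifng and in all 3 ligands, while Cxcr3 was not called. Ifng, Cxcl9, Cxcl10 and Cxcl11 were called lower, 4 of the 5 genes, against 19.0% of 17172 genes tested, 10.2% higher and 8.81% lower. The groups are those already used, and they overlapped for none of these 4 genes. Ifng fell by 2.15 on the log2 scale (SE 0.24, adjusted p = 0.00017), or 4.44-fold. Cxcl10 fell by 2.56 (SE 0.32, adjusted p = 0.00029) and Cxcl11 was 4.01-fold lower (SE 0.24 on the log2 scale, adjusted p = 0.00025). Cxcl9 fell by 1.08 (SE 0.14, adjusted p = 0.00040), close to the fold threshold, and was no longer called without d14 replicate 2 (log2 fold change -0.92) or with library sizes in place of TMM scaling (-0.999). Cxcr3 differed by 0.18 (SE 0.28, adjusted p = 0.62), and its sign turned without d14 replicate 3. Relative to the T cell markers Ifng was lower at d14 by a log2 difference of -2.84 and Cxcr3 by -0.56, both without overlap (exact permutation p = 0.10, adjusted p = 0.20 for each). Macrophage markers (432 to 784 CPM at d14, 1055 to 1161 CPM at d6), monocyte markers (295 to 440.0 and 521 to 537), resident peritoneal macrophage markers (39.9 to 61.9 and 410 to 573) and NK cell markers (2.81 to 4.38 and 7.92 to 9.25) also separated these days. Those of type 1 conventional dendritic cells lay at 167 to 188 CPM at d14 and 222 to 300 CPM at d6, with Batf3 and Tlr3 called lower of 6 genes. Neutrophil markers (60.7 to 115 and 128 to 219), Cd4 and adipocyte and skeletal muscle markers were lower at d14 without overlap too, while T cell, CD8 T cell and endothelial markers were higher, and the part of these cells was not tested.

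Of the type I IFN targets 25 of 28 were called lower at d14 than at d6, with a median of -1.75. Of the IFN gamma targets 4 fell, among them Serpina3g by 1.68 (SE 0.20, adjusted p = 0.00022), Psmb10, an immunoproteasome subunit gene, by 1.25 (SE 0.12, adjusted p = 9.8e-05) and Fcgr1, an IgG receptor gene, by 1.13 (SE 0.21, adjusted p = 0.0021). Ciita, the activator of MHC class II genes, rose by 1.30 (SE 0.20, adjusted p = 0.00092). Art3, which lies in the chemokine cluster and shares 133 exon bases with Cxcl10, fell by 1.40 (SE 0.26, adjusted p = 0.0022). It had at most 189 counts in any library. Ppef2, which flanks the cluster, was called in the other direction, with a rise of 1.15 (SE 0.41, adjusted p = 0.042). The 5 calls among the IFN gamma targets became 3 without d6 replicate 3 or d14 replicate 2 and 6 without d14 replicate 3.

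**Figure D5:**
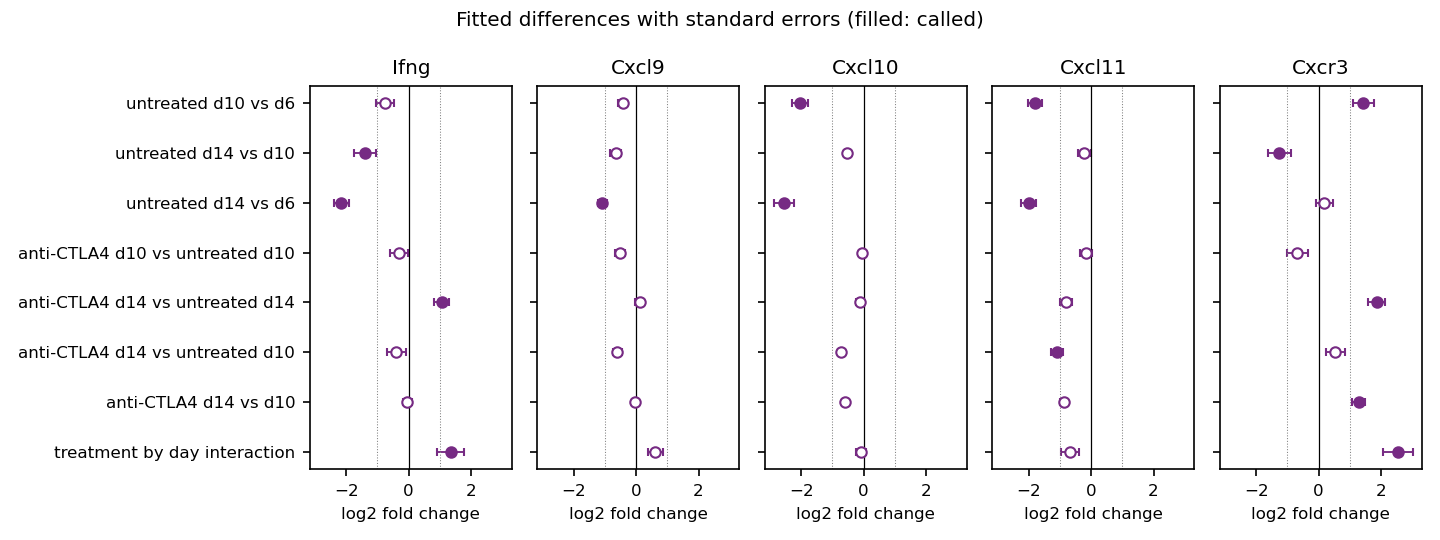
Fitted log2 fold changes of the 5 genes (points) with their standard errors (whiskers) in 7 pairwise comparisons and the treatment by day interaction; filled points were called, and dotted lines mark the fold threshold. Ifng, Cxcl9, Cxcl10 and Cxcl11 have their largest difference at d14 against d6, and Cxcr3 has its largest in the interaction. In treated against untreated d14 and in the interaction, only Ifng and Cxcr3 are called.

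At d10 the treated and untreated tumors were not separated by any of the 5 genes. In edgeR 0 of 5 were called, 1 had an unadjusted p-value below 0.05, and DESeq2 called 0 as well. Over the 17258 genes tested 0.0174% were called, 0.0174% higher and 0% lower. That count of 3 changed with the untreated d10 tumors and the tool used. Against d10 replicates 1 to 3 alone 1152 genes of 16963 were called (329 higher and 823 lower), against replicates 4 and 5 alone 96 of 17125, without d10 replicate 5 115 of 17211, and DESeq2 called 223 on all 5, while none of the 5 genes of the axis was called in any of these. Ifng was at 15.4, 12.7 and 12.5 CPM in the treated d10 tumors, inside the untreated range, at a log2 fold change of -0.30 (SE 0.30, adjusted p = 0.66). Against d10 replicates 1 to 3 alone it was at -0.64 (adjusted p = 0.0084), past the p-value threshold and short of the fold threshold, and against replicates 4 and 5 alone its sign turned, to 0.43 (adjusted p = 0.18). Cxcl9 was at 441, 472 and 375 CPM and overlapped only with untreated d10 replicate 5, at -0.51 (SE 0.16, unadjusted p = 0.0094, adjusted p = 0.27), and at -0.53 (adjusted p = 0.0076) against replicates 1 to 3 alone. Cxcl10 was at 201, 215 and 183 CPM, at -0.05 (SE 0.11, adjusted p = 0.84). Cxcl11 was at 93.3, 117 and 92.6 CPM, at -0.17 (SE 0.19, adjusted p = 0.70). Cxcr3 was at 4.43, 3.99 and 2.51 CPM, at -0.69 (SE 0.34, adjusted p = 0.40), and of the 3 treated tumors only replicate 3 lay below every untreated one.

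None of the genes in the pathway lists was called at d10. The smallest adjusted p-value in these lists was 0.14, for Dpp4, whose product is a peptidase that trims CXCR3 ligands, at a log2 fold change of -0.57 (SE 0.11). T cell markers summed to between 137 and 162 CPM in the treated d10 tumors, overlapping with the untreated ones. Cd4 (4.57 to 5.17 CPM treated, 5.68 to 10.1 CPM untreated), B cell markers (28.5 to 33.5 and 40.5 to 132) and adipocyte markers (4.38 to 5.14 and 9.70 to 21.0) were lower in treated tumors without overlap. The log2 level of Ifng relative to the T cell markers was -3.45 ± 0.09 (n = 3), a difference of -0.02 from the untreated mean (exact permutation p = 1, adjusted p = 1). That mean averages untreated tumors at -3.00 to -2.82 (replicates 1 to 3) and at -4.19 and -4.17 (replicates 4 and 5), and the treated tumors, at -3.55 to -3.38, fell between these sets. Cxcr3 relative to the T cell markers was at -5.35 ± 0.41, a difference of -0.43 (exact permutation p = 0.23, adjusted p = 0.36).

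At d14 treated tumors had more Ifng and more Cxcr3 than untreated ones, while none of the ligands was called. Ifng and Cxcr3 were called higher, 2 of the 5 genes, against 11.5% of 18062 genes tested, 9.07% higher and 2.40% lower. Ifng was at 14.2, 14.3 and 10.5 CPM in the treated d14 tumors, above every untreated d14 tumor. It rose by 1.06 on the log2 scale (SE 0.25, adjusted p = 0.017), or 2.08-fold. Cxcr3 was at 9.43, 9.13 and 7.73 CPM, against at most 3.31 CPM untreated, and rose by 1.86 (SE 0.26, adjusted p = 0.0051), or 3.62-fold.

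Treated replicate 2, which nearly lacks the acinar transcripts, had 14.3 CPM of Ifng and 9.13 CPM of Cxcr3. With replicate 2 as the only treated tumor the log2 fold changes were 1.19 for Ifng and 1.92 for Cxcr3, and with that single tumor neither was called (adjusted p = 0.14 and 0.10). The Ifng call lies close to both thresholds and was also lost without treated replicate 1 (1.02, adjusted p = 0.057), without treated replicate 2 (1.02, adjusted p = 0.057) and without untreated replicate 2 (0.84, adjusted p = 0.025), whereas Cxcr3 kept its call whenever 1 tumor was left out.

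Of the ligands, Cxcl9 was at 381, 459 and 410 CPM, overlapping with the untreated d14 tumors, at a log2 fold change of 0.12 (SE 0.15, adjusted p = 0.58). Cxcl10 was at 125, 136 and 130 CPM, also overlapping, at -0.13 (SE 0.12, adjusted p = 0.45). Cxcl11 was at 52.1, 48.6 and 62.5 CPM, below every untreated d14 tumor, at -0.82 (SE 0.19, adjusted p = 0.017), which is past the p-value threshold and short of the fold threshold. Its share of the summed level of the 3 ligands per length was 6.85% ± 1.09 (n = 3) in treated and 11.7% ± 2.29 (n = 3) in untreated d14 tumors.

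T cell markers summed to between 158 and 182 CPM in the treated d14 tumors, above every untreated d14 tumor. Relative to them Ifng was at -3.72 ± 0.16 (n = 3), a difference of -0.0036 from untreated (exact permutation p = 1, adjusted p = 1). Cxcr3 relative to them was at -4.28 ± 0.08, higher by 0.79 and without overlap, with an exact permutation p = 0.10, the smallest that 3 against 3 tumors can give, and adjusted p = 0.20. Markers of several other cell types also separated these groups. NK cell markers summed to between 4.76 and 7.08 CPM treated and between 2.81 and 4.38 CPM untreated, Cd4 was between 8.13 and 10.2 CPM and between 2.08 and 4.57 CPM, and neutrophil markers lay between 146 and 194 CPM and between 60.7 and 115 CPM. Endothelial markers summed to between 146 and 178 CPM treated and between 90.4 and 109 CPM untreated, fibroblast markers to between 1291 and 1996 CPM and between 505 and 991 CPM, and macrophage markers to between 1253 and 1565 CPM and between 432 and 784 CPM. The summed mesothelial markers were at 1885 to 2101 CPM treated and 2771 to 2836 CPM untreated, without overlap, but the 8 genes of that list were split. The log2 fold changes of Krt8, Krt18, Krt19 and Msln were below 0 and none of them was called, while those of Upk1b, Upk3b, Wt1 (1.54) and Lrrn4 (2.19) were above 0, with the last 2 called higher. Summed markers of type 1 conventional dendritic cells were at 137 to 152 CPM treated and 167 to 188 CPM untreated, without overlap, but 3 of the 6 genes had log2 fold changes above 0, 3 below, and none was called. CD8 T cell markers (103 to 118 CPM treated, 38.3 to 73.4 CPM untreated) and resident peritoneal macrophage markers (72.4 to 99.1 and 39.9 to 61.9) were higher in treated tumors. The part of these cells in the Ifng and Cxcr3 differences was not tested.

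Of the 14 tested genes that induce Ifng, 7 were called higher in treated d14 tumors and none lower, with a median of 1.03. They included Il12a, an IL-12 subunit, at 2.54 (SE 0.58, adjusted p = 0.016) and Il21 at 2.34 (SE 0.53, adjusted p = 0.016). Il27 at 1.34 (SE 0.31, adjusted p = 0.016) and Tbx21 at 1.19 (SE 0.28, adjusted p = 0.018) were among them too. Il21 had only 24 to 41 counts per library in treated and 3 to 11 in untreated d14 tumors, and Il12a had means of 0.57 and 0.10 CPM. Of the 7 effector T cell chemokine and receptor genes 3 were called higher, Cxcl16 at 1.30 (SE 0.25, adjusted p = 0.0095), Ccl4 at 1.09 (SE 0.24, adjusted p = 0.014) and Cxcr6 at 1.04 (SE 0.24, adjusted p = 0.016). H2-Ab1 rose by 1.15 (SE 0.27, adjusted p = 0.017), 1 of the 6 MHC class II genes. With 1 tumor left out the 7 calls among the inducing genes ranged from 1 (without treated replicate 2) to 11 (without untreated replicate 3), and the 3 among the effector T cell genes from 1 (without untreated replicate 2) to 5 (without untreated replicate 3). With treated replicate 2 alone 0 genes were called in these lists, in a fit that called 2 of 19298 genes in all.

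Of the 29 IFN gamma targets, 2 rose, Icam1, an adhesion molecule gene, by 1.21 (SE 0.21, adjusted p = 0.0078) and Nos2 by 1.15 (SE 0.22, adjusted p = 0.010). The tryptophan-degrading enzyme gene Ido1 fell by 1.02 (SE 0.15, adjusted p = 0.0059), and the list's median was -0.16, with 18 of 29 below 0 and 11 above. At any fold 17 of the list were past the p-value threshold, against 32.4% of all genes, and more of the 17 were lower than higher in treated tumors. Without untreated replicate 2 the 3 calls became 1. Of the 28 type I IFN targets, 1 was called lower, Ifit3b, at -1.13 (SE 0.20, adjusted p = 0.0079), 20 were past the p-value threshold at any fold, and the median was -0.60.

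The difference between the treatment effects on the 2 days was tested as an interaction, the log2 fold change of treated over untreated tumors at d14 minus that at d10. Of the 5 genes 2 were called, Cxcr3 at 2.54 (SE 0.48, adjusted p = 0.0050) and Ifng at 1.35 (SE 0.44, adjusted p = 0.046), against 11.8% of 18574 genes tested, 9.67% higher and 2.15% lower. The Cxcr3 call held under every alternative run. With replicate 2 as the only treated d14 tumor, assumed to vary like the other groups, it was at 2.57 (adjusted p = 0.040). The Ifng call lies at the threshold. It was lost with d10 replicates 4 and 5 alone (0.62, adjusted p = 0.16), with replicate 2 as the only treated d14 tumor (1.46, adjusted p = 0.14), with counts thinned to the smallest library (1.27, adjusted p = 0.060), and when any 1 of 11 tumors was left out, at log2 values from 1.12 to 1.46. Several cell type lists moved in the same direction, with 4 of 6 T cell, both CD8 T cell, 5 of 6 macrophage, 4 of 4 fibroblast and 3 of 4 B cell genes called higher and none lower, among them Cd2 at 1.99, Cd4 at 2.14 and Csf1r at 1.65. The adipocyte genes Adipoq (2.86), Cfd (2.79) and Plin1 (2.67) were called higher too. Of the mesothelial list Lrrn4 (3.71), Upk3b (3.56), Upk1b (3.17) and Wt1 (2.48) were called higher. Its Krt8, Krt18, Krt19 and Msln were below 0 and not called. Called higher as well were Retnlg (3.09), Cxcr2 (2.27) and Csf3r (1.48) of the neutrophil list. So were Gata6 (1.83), Timd4 (1.51) and Icam2 (1.25) of the resident peritoneal macrophage list. The part of these cells in the Cxcr3 and Ifng values was not tested. Cxcl9, Cxcl10 and Cxcl11 were at 0.62 (adjusted p = 0.083), -0.09 (adjusted p = 0.76) and -0.66 (adjusted p = 0.13).

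Across treatment and day together, treated d14 tumors were set against untreated d10 tumors, the day on which untreated T cell transcripts were highest. Of the 5 genes 1 was called, Cxcl11, lower, against 7.83% of 18057 genes tested, 5.34% higher and 2.49% lower. Cxcl11 fell by 1.10 on the log2 scale (SE 0.19, adjusted p = 0.0046), with no treated d14 tumor above 62.5 CPM and no untreated d10 tumor below 91.3 CPM. It was below the fold threshold with library sizes in place of TMM (-0.96), a scaling that moved the median of all genes from -0.03 to 0.11, and without d10 replicate 3 (-0.95), and past the p-value threshold no longer with replicate 2 as the only treated tumor (-1.28, adjusted p = 0.12). Cxcl10 and Cxcl9 were lower by less than the fold threshold, at -0.71 (SE 0.10, adjusted p = 0.0024) and -0.60 (SE 0.15, adjusted p = 0.019), the former without overlap. Ifng and Cxcr3 were at -0.40 (SE 0.30, adjusted p = 0.35) and 0.53 (SE 0.30, adjusted p = 0.21), both with overlap. Against d10 replicates 1 to 3 alone Ifng was at -0.74 (adjusted p = 0.0040) and Cxcr3 at 0.94 (adjusted p = 0.0032), past the p-value threshold and short of the fold threshold, while against replicates 4 and 5 alone Ifng turned sign (0.35, adjusted p = 0.12) and Cxcr3 was at 0.11 (adjusted p = 0.72). Beside the acinar transcripts, several summed marker lists did not overlap between these groups. These were endothelial (146 to 178 CPM treated d14, 75.8 to 144 CPM untreated d10), fibroblast (1291 to 1996 and 875 to 1287) and mesothelial markers (1885 to 2101 and 2649.6 to 4039). Adipocyte (2.54 to 8.48 and 9.70 to 21.0) and skeletal muscle markers (at most 0.217 CPM in treated d14) did not overlap either. The mesothelial list was split, with Krt19 called lower (-1.15) and Lrrn4 called higher (1.40). Krt8 and Krt18 were below 0 and Msln, Wt1, Upk1b and Upk3b above 0, none of them called. The part of these cells was not tested.

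Of the 5 genes 1 was called between the treated tumors of d14 and d10, Cxcr3, higher, against 11.5% of 17791 genes tested, 9.00% higher and 2.48% lower. Cxcr3 rose by 1.28 on the log2 scale (SE 0.20, adjusted p = 0.0015), without overlap. With replicate 2 as the only treated d14 tumor it was at 1.33 (adjusted p = 0.016), and Cxcl11, at -1.05 (adjusted p = 0.0075), was called as well. Ifng and Cxcl9 stayed within 0.05 of 0 on the log2 scale (Ifng -0.04, SE 0.14, adjusted p = 0.82 and Cxcl9 -0.03, SE 0.10, adjusted p = 0.82), and both changed sign with library sizes in place of TMM, a scaling that also moved the median of all genes from 0.04 to 0.16. Cxcl10 and Cxcl11 were lower at d14 without overlap, at -0.60 (SE 0.08, adjusted p = 0.00083) and -0.88 (SE 0.12, adjusted p = 0.00092), both short of the fold threshold. Cxcr3 per T cell marker was higher by 1.07 in the treated d14 tumors and Ifng per T cell marker differed by -0.27, both without overlap (exact permutation p = 0.10, adjusted p = 0.20 for each). Other cell markers separated these groups too. Cd4 was at 8.13 to 10.2 CPM at d14 and 4.57 to 5.17 CPM at d10, B cell markers summed to 49.4 to 54.1 CPM and 28.5 to 33.5 CPM, and macrophage markers to 1253 to 1565 CPM and 1024 to 1206 CPM. Endothelial markers summed to 146 to 178 CPM and 73.3 to 102 CPM, and fibroblast markers to 1291 to 1996 CPM and 689 to 1000.3 CPM. Summed monocyte markers (301 to 339 CPM at d14, 379.8 to 426 CPM at d10), summed mesothelial markers (1885 to 2101 and 2889.8 to 3749.6) and skeletal muscle markers were lower at d14 without overlap. The monocyte and mesothelial lists were split. The mean of Ccr2 was 134 CPM at d14 and 90.9 CPM at d10, while those of Plac8 (172 and 291) and Ly6c2 (11.9 and 19.8) were lower at d14. Wt1 (32.9 and 10.9), Lrrn4 (25.2 and 3.25), Upk3b (15.6 and 1.71) and Upk1b (9.18 and 1.59) were higher at d14. The means of Krt8, Krt18, Krt19 and Msln were lower. The part of these cells in the Cxcr3 difference was not tested. Il12a and Il12b, the IL-12 subunit genes, rose by 2.81 (SE 0.50, adjusted p = 0.0023) and 2.37 (SE 0.38, adjusted p = 0.0016). Both rest on few counts. Il12b had 45 to 75 counts per library in treated d14 and 6 to 12 in treated d10 tumors, and Il12a had means of 0.57 and 0.082 CPM.

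The order of the groups by mean level differed between the genes. Ifng ran from untreated d6 (28.6 CPM) through untreated d10 (16.7), treated d10 (13.5) and treated d14 (13.0) to untreated d14 (6.37), and only the last pair of neighbours differed past the threshold. Cxcl9 kept the same order, at 839, 614, 430, 417 and 392 CPM, with no neighbouring pair called. Cxcl10 ran from untreated d6 (861 CPM) through untreated d10 (207), treated d10 (199.5), untreated d14 (145) and treated d14 (130.1), and Cxcl11 took the same order at 398, 113, 101, 98.0 and 54.4 CPM. For both, the first step was called and the last was not, while treated d10 against untreated d14 was not fitted. Cxcr3 ran from treated d14 (8.77 CPM) through untreated d10 (5.88), treated d10 (3.64) and untreated d14 (2.47) to untreated d6 (2.21), and none of the neighbouring pairs fitted was called.

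Across the 17 libraries the 3 chemokines varied together, with Pearson's r of 0.94 between Cxcl10 and Cxcl11, 0.83 between Cxcl9 and Cxcl10 and 0.79 between Cxcl9 and Cxcl11, on log2 CPM. Ifng had r = 0.78 with Cxcl9, 0.72 with Cxcl10 and 0.57 with Cxcl11, and -0.02 with Cxcr3, which had r = -0.11 with Cxcl9, -0.44 with Cxcl10 and -0.60 with Cxcl11. These values describe libraries that share 5 groups, with the 3 d6 tumors at one end. Among 18836 genes, those most like Cxcl10 were Tor3a (r = 0.98), Ehd4, Dhx58, Lhx2 and Isg15, and those most like Cxcl11 were Itgb6 (r = 0.98), Bloc1s6, Usp18, Ccdc33 and Isg15. The genes most like Cxcl9 were Csrp1 (r = 0.94), Ube2q1, P2ry13, Epsti1 and Ncr1. Those most like Ifng were Il2rg (r = 0.95), Stx11, AI662270, Tuba8 and Ccl11. Those most like Cxcr3 were Fbln1 (r = 0.97), Clip3, B4galt2, Cpxm1 and Armc7.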

How the data were processed

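RNA from 17 tumors was sequenced by the authors, whose methods name TopHat2 v2.0.14 for alignment to GRCm38 and HTSeq for counting uniquely mapped reads over Gencode vM21 genes. The deposited values are whole-number counts per gene without normalization, all 55450 genes of the table matched Gencode vM21, and groups come from the sample labels. Libraries were run on a NextSeq500 or a NovaSeq6000, and which library was run on which is not given in the sources used here. The authors also discarded genes whose level differed by sequencing project, and the project of each library is not given either. No gene was removed for that reason here, so a project effect in the day and treatment differences cannot be told apart from them. Genes passing filterByExpr were TMM-normalized and tested with the quasi-likelihood test of edgeR 4.0.16 in R 4.3.3, each fit holding the compared groups alone. Adjusted p-values are Benjamini-Hochberg over all genes tested, and a standard error is |log2 fold change|/sqrt(F). Levels are TMM-normalized CPM, and per kilobase of exon union they are given as FPKM. Ratios to T cell markers used a pseudocount of 0.1 CPM and exact permutation tests adjusted over 14. With 3 against 3 tumors such a test cannot give p below 0.10, so it could not pass at any difference. No pair of replicates agreed within sampling noise. The procedure was tested on simulated data with known fold changes. Alternatives were DESeq2 1.42.0, its size factors, library sizes only, other count filters, all groups in one fit, thinning, leaving out each replicate in turn, a fit on protein coding genes, the replicate number as a block and the d10 sets. The named list genes are, per list and comparison, up to 4 called genes with the largest fold change or, with none called, those with the smallest adjusted p-values, of which the text gives a part. The genes most like each of the 5 are the 5 with the highest Pearson's r, leaving out symbols of gene models. The 5 genes, the lists and the alternatives were chosen with earlier results of these data known. Values of some listed genes are not reported here. Figures were drawn with matplotlib 3.10.9.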

Additional observations from a re-analysis of the deposited data

Results flagged for a closer look

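The effect of anti CTLA-4 treatment differed between d14 and d10, by the interaction test of edgeR, for Cxcr3 (2.54 on the log2 scale) and Ifng (1.35). It also differed for the Ifng-inducing genes Il12a (4.03), Ebi3 (1.56), Tbx21 (1.495) and Il27 (1.47), for the effector T cell chemokine and receptor genes Cxcl16 (1.76), Cxcr6 (1.19) and Ccl3 (1.07), and for H2-Ab1 (1.82) and H2-Aa (1.10). Ackr1, a decoy receptor for chemokines, was at 2.64, Dpp4 at 1.33, Icam1 at 1.18 and Art3 at 1.12. The GTPase genes Tgtp1 (-1.62) and Tgtp2 (-1.43) differed in the other direction. The Ifng call lies at the threshold (adjusted p = 0.046 in the interaction test) and was lost in 14 of 26 alternatives. Because the injection days of the treated d10 mice are not given, day and number of doses cannot be told apart. With replicate 2 as the only treated d14 tumor, the calls among the Ifng-inducing genes went from 6 to 1 and among the effector T cell genes from 4 to 2, while those over all genes went from 2196 of 18574 to 771 of 19908. With 1 tumor left out they ranged from 3 to 9 (without untreated d14 replicate 3) and from 2 (without untreated d14 replicate 2) to 5. Whether the acinar transcripts of the other treated d14 tumors bear on these genes was not tested. In the untreated d10 group, the only one large enough for the check, 26 quantities (the levels of the 5 genes, their ratios and the summed markers of each cell type list) were examined for a single tumor far from the other 4. The B cell markers of replicate 4, at 132 CPM against 40.5 to 44.4 CPM in the other 4, met that bar, which chance reaches in about 1 in 20 groups. Such a check cannot find 2 tumors that stand apart together, as replicates 4 and 5 do for Ifng relative to T cell markers.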

How the results depend on the processing

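Of 150 recomputed counts of called genes among the 5, 117 stayed within 1.5 times the main count, 32 were lower and 1 was higher. Of 742 recomputed fold changes of single genes, 684 had the same direction and side of the thresholds, 41 lost a call, 2 gained one and 15 changed sign, the last for Ifng, Cxcl9, Cxcl10 and Cxcr3 differences that were not called. For d14 vs d10 the count of 2 became 1 with untreated d10 replicates 1 to 3 only, 1 with replicates 4 and 5 only, and 0 to 2 when 1 tumor was left out. For treated vs untreated d14 the count of 2 became 0 with treated replicate 2 only and 1 to 2 with 1 tumor left out. For treated d14 vs untreated d10 the count of 1 became 0 with library sizes only, with protein coding genes only (which removes Cxcl11 by its annotation) and with treated replicate 2 only, and was 0 to 1 with 1 tumor left out. For treated d14 vs treated d10 the count of 1 became 2 with treated replicate 2 only. For the interaction the count of 2 became 1 with thinned counts, with treated d14 replicate 2 only and with d10 replicates 4 and 5 only, and was 1 to 2 with 1 tumor left out. Where a call was lost beyond the smaller number of tumors or the removal of the gene, the cause was not tested.

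Leaving out 1 tumor turned signs for differences near 0, whose ranges were -0.0712 to 0.42 for Cxcr3 at d14 vs d6, -0.11 to 0.0062 for Cxcl10 at treated vs untreated d10, -0.0496 to 0.22 for Cxcl9 and -0.24 to 0.0071 for Cxcl10 at treated vs untreated d14, -0.12 to 0.0964 for Ifng and -0.14 to 0.0475 for Cxcl9 at treated d14 vs treated d10, and -0.21 to 0.0430 for Cxcl10 in the interaction. Against d10 replicates 4 and 5 only, Ifng was at 0.43 for treated d10 and at 0.35 for treated d14. Between the treated groups Ifng and Cxcl9 were at 0.0738 and 0.0894 with library sizes only, and at 0.0813 and 0.101 with treated d14 replicate 2 only. Per T cell marker, 9 of 142 recomputed differences changed sign, none of them past a threshold. These do not include either d10 set alone, with which the ratios were not recomputed. The Cxcr3 difference of d14 vs d10 was 0.0799 with a pseudocount of 1 CPM and -0.27 to 0.0138 with 1 tumor left out. The Ifng difference of treated vs untreated d14 was 0.0383 per CD8 T cell marker and -0.14 to 0.15 with 1 tumor left out, and that of treated vs untreated d10 was -0.21 to 0.13.

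The replicate numbers pair no tumors, since the deviations of same-numbered tumors from their group means had correlations between -0.26 and 0.14 in 30 pairs, 3 of them over 0.1. With the replicate number as a block the count for d14 vs d10 became 1 (Cxcr3 at -0.89, adjusted p = 0.12), and the other 7 counts were within 1.5 times. Among the counts for the gene lists, 786 recomputed values stayed within 1.5 times and 151 did not, where most main counts were 4 or fewer. Over all genes, the 3 called for treated vs untreated d10 became 1349 with the replicate block, 1152 with d10 replicates 1 to 3 only, 223 with DESeq2 and 0 to 115 with 1 tumor left out. With treated d14 replicate 2 only, the 2072 of treated vs untreated d14 became 2 and the 1414 of treated d14 vs untreated d10 became 1. Ifnb1, Il12a, Il12b and Il21 rest on few counts, and Cxcr3, at most 10.0 CPM, had 97 to 957 counts per library, fewer than the chemokines. With counts thinned to the smallest library, the Cxcr3 call in the interaction test held. That of Ifng was lost (1.27, adjusted p = 0.060).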
